A study of Mus musculus with 20 samples.

Results

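The genes described here are 10 transcriptional targets of the tumour suppressor p53: Cdkn1a, Ccng1, Aen, Polk, Sesn2, Plk2, Ercc5, Psrc1, Mdm2 and Zfp365. They were chosen by symbol from a table of normalized expression that the authors deposited for mouse kidney, and all 10 of the 10 were found among its 6025 genes. RNA had been sequenced from kidney cortex of 20 wild-type C57BL/6 mice (C57BL/6J in the protocol) aged 8 weeks. The 8 controls are labelled mock, and the design text speaks of mock and vehicle without saying which control was which. The injured groups had 4 mice each, and the design text calls the mice biological replicates. They were ischemia-reperfusion injury (IRI, loss and return of renal blood flow) taken at 24 h, rhabdomyolysis (muscle breakdown that loads the kidney with myoglobin) taken at 24 h, and the platinum drug cisplatin taken at 72 h. No group carried a transgene or deletion, and the cisplatin dose and the way rhabdomyolysis was induced are not given in the sources used here. Cisplatin kidneys were taken later than the others, so drug and time cannot be told apart in any comparison with them.

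p53 is a transcription factor that is normally kept low because Mdm2 marks it for degradation. DNA damage and other stresses stabilise it, and it then switches on genes for cell cycle arrest, DNA repair, cell death and metabolic restraint, and Mdm2 itself, which closes a feedback loop. Cisplatin crosslinks DNA and is taken up by proximal tubule cells, and p53 activation is a known part of its kidney toxicity.

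The promoters are shown first, because p53 acts through a response element made of a pair of half-sites. The RefSeq promoter table (GRCm38.p6, the build named in the submitters' processing notes) held 14 windows for the 10 genes, each running from 250 bases before a transcript start to 50 bases after it. They were searched on both strands for the p53 half-site consensus without mismatch, and for a full element of 2 half-sites separated by 0 to 3 bases with at most 2 mismatches, none of them in the core C and G. A full element was found in 3 of the 10 genes, against 1.55% of the 27025 genes in the table, and a half-site in 5 of the 10, against 9.55%. The 250 bases before the start of those 3 genes follow on the transcribed strand, with the full element in capitals.
Cdkn1a: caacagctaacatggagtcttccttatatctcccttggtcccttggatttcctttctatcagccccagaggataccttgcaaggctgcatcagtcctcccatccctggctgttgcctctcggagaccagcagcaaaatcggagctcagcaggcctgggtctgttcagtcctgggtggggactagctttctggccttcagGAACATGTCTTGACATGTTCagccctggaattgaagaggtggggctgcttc
Ccng1: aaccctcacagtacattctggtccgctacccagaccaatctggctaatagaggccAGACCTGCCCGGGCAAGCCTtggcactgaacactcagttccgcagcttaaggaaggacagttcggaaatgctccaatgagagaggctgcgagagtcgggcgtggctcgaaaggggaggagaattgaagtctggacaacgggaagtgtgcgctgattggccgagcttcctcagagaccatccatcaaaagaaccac
Zfp365: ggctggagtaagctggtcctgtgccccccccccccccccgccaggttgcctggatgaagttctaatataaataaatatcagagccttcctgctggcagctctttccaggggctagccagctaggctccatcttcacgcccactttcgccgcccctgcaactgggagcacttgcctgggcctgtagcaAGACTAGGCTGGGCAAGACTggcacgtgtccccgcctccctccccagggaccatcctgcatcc

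The Cdkn1a window is chr17:29090729-29090978 on the plus strand. Its element, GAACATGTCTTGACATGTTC at chr17:29090928-29090947, had 1 mismatch and lay 51 to 32 bases before the start of the longer transcript and 2841 bases before the second annotated start, upstream of the gene. The Ccng1 window is chr11:40755287-40755536 on the minus strand, and its element, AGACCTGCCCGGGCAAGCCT at chr11:40755462-40755481, had 1 mismatch and lay 195 to 176 bases before the start. The Zfp365 window is chr10:67912663-67912912 on the minus strand, and its element, AGACTAGGCTGGGCAAGACT at chr10:67912706-67912725, had 2 mismatches and lay 63 to 44 bases before the start. Half-sites alone were found in Mdm2 (GAACTTGCCT, upstream), Aen (GGGCTTGTCC, in an exon) and Polk (GAACTAGCCT, in an intron). The half-sites of Ccng1 and one of the pair in Cdkn1a lie inside their full elements. A match describes the letters only, and genes without one (Sesn2, Plk2, Ercc5 and Psrc1) have none in these windows.

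All 10 genes rose in cisplatin (47.8% of all genes tested), 6 in rhabdomyolysis (48.8%) and 5 in IRI (40.6%). None fell in any injury (44%, 46.5% and 40.1% of all genes in the same order). The shares that rose in rhabdomyolysis and IRI were near those of all genes. Cdkn1a, Aen, Mdm2 and Zfp365 rose in every injury, as did 35.3% of all genes tested. Ccng1, Polk and Ercc5 rose in cisplatin alone. Sesn2 and Plk2 rose in cisplatin and rhabdomyolysis but not in IRI, and Psrc1 rose in cisplatin and IRI but not in rhabdomyolysis. Each of the 10 was also higher in cisplatin than in rhabdomyolysis (32.7% of all genes tested), and each had a larger change in cisplatin than in IRI (16.8%). For 5 of them the cisplatin values were a condition of being tested. Ccng1, Polk and Ercc5 needed a 1.5-fold change there, in either direction, and Psrc1 and Zfp365 needed high values there.

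A gene was called changed when its adjusted p in limma was under 0.05 over the 5672 genes tested, on the log2(CPM + 1) scale, where CPM is reads per mega-read of library size. IRI was compared with controls 1 to 4, and rhabdomyolysis and cisplatin with controls 5 to 8, because the library identifiers fall in these 2 ranges. Rhabdomyolysis and cisplatin therefore share their controls. The authors' table is a selection: every gene in it had a group mean 1.5-fold or more above or below that of the 8 controls in some injury, so calls were common. IRI had 40.6% of genes tested called higher and 40.1% lower. For rhabdomyolysis these shares were 48.8% and 46.5%, and for cisplatin 47.8% and 44%. The share of the 10 genes that rose in IRI (5 of 10) or rhabdomyolysis (6 of 10) is near this background. Ccng1, Polk and Ercc5 had passed the 1.5-fold limit through cisplatin only, so a change there, in either direction, was a condition of being listed. Psrc1 and Zfp365 passed the filter on low values through cisplatin only. Rising in every injury was common, at 35.3% of genes tested, or 3.17% when both cisplatin differences were called as well. Rising in cisplatin alone, with both differences called, was met by 0.952%, in cisplatin and rhabdomyolysis but not IRI by 9.11%, and in cisplatin and IRI but not rhabdomyolysis by 2.05%. On the log2 scale the 10 genes had a median change of 0.25 for IRI, 0.79 for rhabdomyolysis and 2.44 for cisplatin, beside 0.08, 0.31 and 0.30 over all genes tested. All 4 libraries lay above all 8 controls for 4 of the 10 genes in IRI, where 31% of genes tested did so, for 5 in rhabdomyolysis (42.3%) and for 10 in cisplatin (40.7%). Nothing is read from the cisplatin median or overlap count, because 5 of the 10 genes were tested only through their cisplatin values. In whole-tissue RNA, fewer cells of a type and less RNA per cell cannot be told apart.

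**Figure D1:**
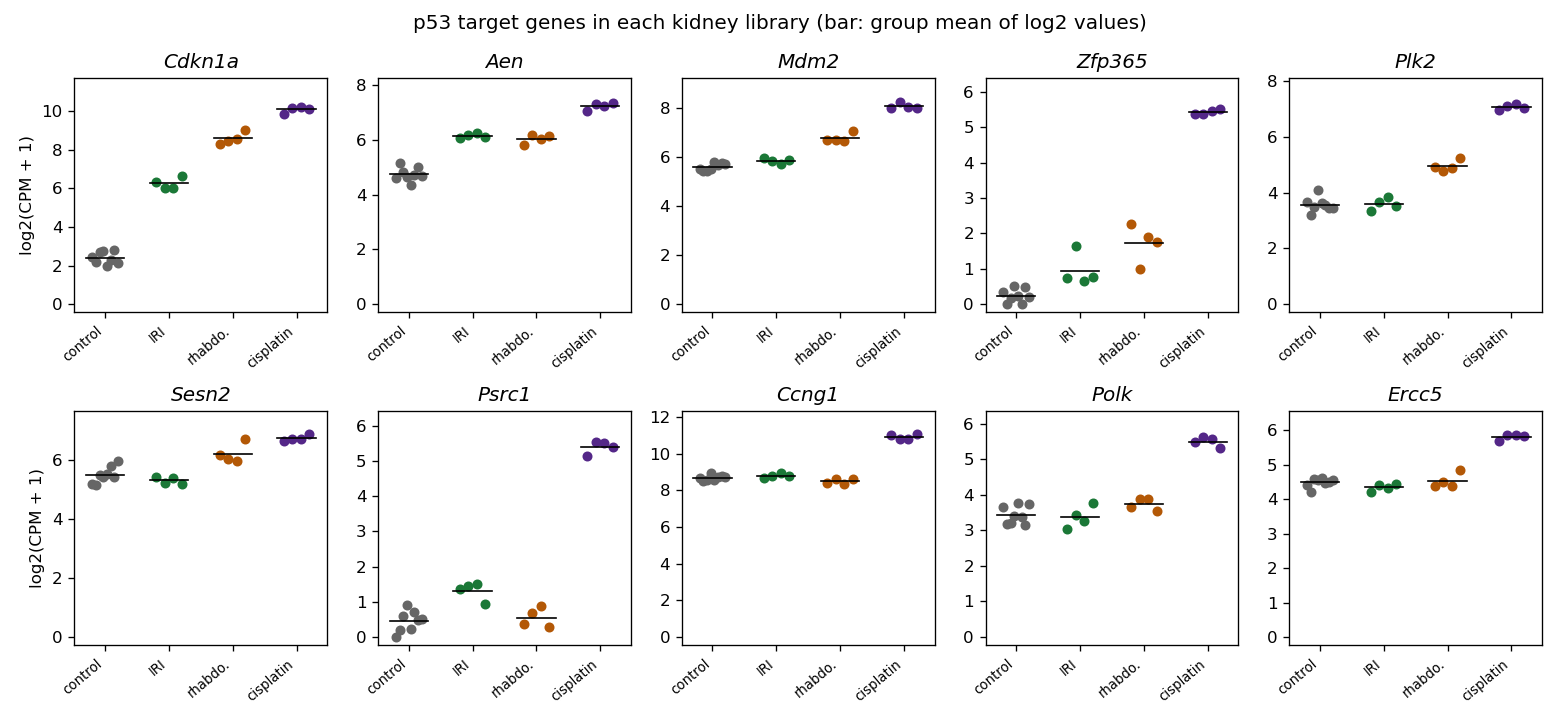
Expression of each of the 10 genes as log2(CPM + 1) in every library, with 8 controls and 4 libraries per injury as points and the mean of the log2 values as a bar. Genes that rose in every injury come first and those that rose in cisplatin alone come last. For 9 of the 10 genes the 4 cisplatin points lie above the other 16, as for 5.99% of genes tested. Nothing is read from this count, since some of the genes were tested only through their cisplatin values.

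Mdm2 encodes the E3 ubiquitin ligase that marks p53 for degradation and is itself a p53 target. In the 8 controls it ranged from 42.3 to 55.0 CPM with a median of 47.2. The IRI mice had 61.8, 56.3, 51.7 and 58.2 CPM, the rhabdomyolysis mice 103, 102, 99.96 and 131 CPM, and the cisplatin mice 252, 299.97, 265 and 255 CPM. Rhabdomyolysis and cisplatin lay wholly above the controls, while the lowest IRI value fell within the control range. In IRI the mean was 57.0 ± 4.20 CPM (SD, n = 4), 1.31 times that of its controls (log2 change 0.38, adjusted p = 0.00159 in limma). In rhabdomyolysis it was 109 ± 14.8 CPM, 2.09 times its controls (1.04, adjusted p = 1.46e-09). In cisplatin it reached 268 ± 21.9 CPM, 5.14 times its controls (2.34, SE 0.10, adjusted p = 4.24e-15). The order of the levels was control, IRI, rhabdomyolysis, cisplatin. Rhabdomyolysis exceeded IRI in effect by 0.67 (adjusted p = 4.65e-04) and cisplatin exceeded rhabdomyolysis by 1.29 (adjusted p = 4.48e-10).

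Cdkn1a encodes p21, an inhibitor of cyclin-dependent kinases that holds damaged cells before division. Its control values ranged from 2.96 to 5.88 CPM with a median of 4.14. The 4 IRI mice had 80.4, 64.9, 63.8 and 98.95 CPM, the rhabdomyolysis mice 322, 346, 384 and 523 CPM, and the cisplatin mice 928, 1171, 1206 and 1135 CPM. No group overlapped another. Mean Cdkn1a was 77.0 ± 16.5 CPM in IRI (SD, n = 4), 15.99 times its controls. It was 394 ± 89.8 CPM in rhabdomyolysis, 98.4 times its controls, and 1110 ± 125 CPM in cisplatin, 277 times the same controls. By log2 change it stood 22nd of the 5672 genes in IRI (3.74, adjusted p = 1.79e-13). It stood 9th in rhabdomyolysis (6.31, adjusted p = 1.12e-17) and 4th in cisplatin (7.82, SE 0.18, adjusted p = 3.33e-19). Each step was larger than the spread between mice: rhabdomyolysis exceeded IRI in effect by 2.57 (adjusted p = 1.00e-07) and cisplatin exceeded rhabdomyolysis by 1.51 (adjusted p = 4.46e-07). In GENCODE M21, 273 exonic bases of Cdkn1a (7.68%) overlap exons of the locus AC167363.2 on the opposite strand. The kit marks strand, and whether the counting used it is not given in the sources used here.

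Plk2 encodes polo-like kinase 2, which acts in centriole duplication. Controls ranged from 8.16 to 16.1 CPM with a median of 10.4, the highest being control 4. The IRI mice, with 9.05, 11.7, 13.2 and 10.5 CPM, lay within that range. Rhabdomyolysis gave 28.8, 26.4, 28.8 and 36.8 CPM, and cisplatin gave 124, 138, 142 and 129 CPM, each above every control. Plk2 thus stayed in its control range in IRI and left it in both other injuries. In IRI the log2 change was -0.01 (95% interval -0.34 to 0.31, adjusted p = 0.932 in limma). Rhabdomyolysis raised the mean to 30.2 ± 4.53 CPM (SD, n = 4), 2.88 times its controls (1.43, adjusted p = 1.37e-08). Cisplatin raised it to 133 ± 8.15 CPM, 12.7 times the same controls (3.55, SE 0.16, adjusted p = 8.25e-15). The rhabdomyolysis effect exceeded the IRI effect by 1.45 (adjusted p = 1.70e-05), and cisplatin exceeded rhabdomyolysis by 2.11 (adjusted p = 2.72e-10).

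Ccng1 encodes cyclin G1, an unconventional cyclin that brings the phosphatase PP2A to Mdm2. Control values ranged from 366 to 487 CPM with a median of 416. The IRI mice had 411, 443, 492 and 432 CPM and the rhabdomyolysis mice 340, 392, 323 and 396 CPM. Both injuries overlapped the controls. The 4 cisplatin mice, at 2103, 1778, 1773 and 2115 CPM, stood far above all others. The mean in cisplatin was 1942 ± 193 CPM (SD, n = 4), 4.66 times its controls (log2 change 2.21, SE 0.11). Ccng1 is in the table through cisplatin only, so its cisplatin values are a description. In IRI the change was 0.12 (95% interval -0.11 to 0.35, adjusted p = 0.312 in limma) and in rhabdomyolysis -0.20 (95% interval -0.43 to 0.03, adjusted p = 0.0849). Cisplatin exceeded rhabdomyolysis by 2.42 and the IRI effect by 2.09. The absence of a call in the other injuries depended on scaling. With the libraries scaled to their 75th percentile, Ccng1 was called higher in IRI (0.25, adjusted p = 0.0449), and with quantile normalization it was called higher in IRI (0.64, adjusted p = 1.07e-04) and in rhabdomyolysis (0.41, adjusted p = 0.00431).

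Psrc1 encodes a microtubule-associated protein of the dividing cell. It was barely detected outside cisplatin. The 8 controls had 0 to 0.863 CPM, which is 0 to 6 reads, and the rhabdomyolysis mice 0.284, 0.591, 0.855 and 0.227 CPM, or 2 to 9 reads. IRI gave 1.57, 1.73, 1.84 and 0.915 CPM, or 8 to 16 reads, all above the highest control. Cisplatin gave 34.4, 45.8, 44.6 and 41.2 CPM, or 295 to 454 reads. At these depths the sizes are given from reads pooled over mice, with counting intervals that leave out the spread between mice. In IRI, 49 reads against 11 in its controls gave a ratio per effective library size of 4.00, with an exact 95% counting interval of 2.05 to 8.53. In rhabdomyolysis, 20 reads against 11 gave 1.23 (0.560 to 2.84), and in cisplatin 1573 reads against 11 gave 102 (57.1 to 206). On the log2 scale, which understates low genes, Psrc1 rose by 0.89 in IRI (adjusted p = 3.91e-04 in limma) and by 4.92 in cisplatin (SE 0.20). It passed the filter on low values only through its cisplatin libraries, so its cisplatin values are a description. In rhabdomyolysis its change was 0.07 (95% interval -0.34 to 0.49, adjusted p = 0.718). Cisplatin exceeded rhabdomyolysis by 4.85 and the IRI effect by 4.03. The effect in IRI was larger than that in rhabdomyolysis by 0.82 on the log2 scale (rhabdomyolysis minus IRI -0.82, adjusted p = 0.0194). That difference missed the threshold without control 1 (adjusted p = 0.0504) and with edgeR or DESeq2 on recovered reads (0.0699 to 0.0953).

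Polk encodes DNA polymerase kappa, which copies across damaged bases. The controls ranged from 7.88 to 12.5 CPM with a median of 9.40. IRI gave 7.21, 9.72, 8.61 and 12.7 CPM and rhabdomyolysis 11.6, 13.8, 13.7 and 10.7 CPM, both overlapping the controls. Cisplatin gave 43.5, 48.8, 46.0 and 38.8 CPM, above all other libraries. The cisplatin mean of 44.3 ± 4.21 CPM (SD, n = 4) was 4.22 times its controls (log2 change 2.00, SE 0.17), a description for the same reason as for Ccng1. In IRI the change was 0.02 (95% interval -0.33 to 0.36, adjusted p = 0.922 in limma) and in rhabdomyolysis 0.24 (95% interval -0.11 to 0.59, adjusted p = 0.168). Cisplatin exceeded rhabdomyolysis by 1.75 and the IRI effect by 1.98. Polk was called higher in rhabdomyolysis with 75th percentile scaling (0.41, adjusted p = 0.0326) and against all 8 controls (0.31, adjusted p = 0.0421).

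Ercc5 encodes XPG, the nuclease that cuts 3' of a lesion in nucleotide excision repair, the pathway that removes platinum adducts. Control values ranged from 17.6 to 23.7 CPM with a median of 22.01. IRI, at 17.6, 20.5, 18.9 and 20.8 CPM, and rhabdomyolysis, at 20.0, 21.8, 20.0 and 28.0 CPM, overlapped them. The cisplatin mice had 51.0, 57.6, 57.4 and 56.4 CPM. Their mean of 55.6 ± 3.11 CPM (SD, n = 4) was 2.50 times that of the controls (log2 change 1.28, SE 0.12), again a description, since Ercc5 is in the table through cisplatin only. The intervals around the other changes were narrow, from -0.34 to 0.15 in IRI and from -0.25 to 0.24 in rhabdomyolysis. Cisplatin exceeded rhabdomyolysis by 1.28 and the IRI effect by 1.38. Ercc5 was called higher in neither IRI nor rhabdomyolysis under any setting tried.

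Aen encodes a nuclease that enhances apoptosis. In controls it ranged from 19.3 to 34.2 CPM with a median of 25.04. The IRI mice had 66.5, 71.8, 75.4 and 68.2 CPM, the rhabdomyolysis mice 54.5, 70.7, 63.9 and 69.0 CPM, and the cisplatin mice 133, 157, 149 and 162 CPM. Every injured library lay above every control, and IRI and rhabdomyolysis overlapped each other. Means were 70.5 ± 3.98 CPM in IRI (SD, n = 4), 2.59 times its controls, and 64.5 ± 7.28 CPM in rhabdomyolysis, 2.56 times its controls. The log2 changes were 1.36 (adjusted p = 1.31e-08 in limma) and 1.34 (adjusted p = 4.85e-09), and their difference was -0.02 (adjusted p = 0.936). The rise of Aen in rhabdomyolysis and in IRI was thus not told apart. Cisplatin gave 150.1 ± 12.7 CPM, 5.96 times its controls (2.54, SE 0.14, adjusted p = 2.27e-13), and exceeded rhabdomyolysis by 1.21 (adjusted p = 1.54e-07) and the IRI effect by 1.19 (adjusted p = 7.32e-05).

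Sesn2 encodes sestrin 2, a leucine sensor that restrains the growth kinase mTORC1. It had the smallest response to cisplatin of the 10. Controls ranged from 34.9 to 61.9 CPM with a median of 43.7, and IRI, at 42.6, 36.8, 41.4 and 35.3 CPM, lay within them. Rhabdomyolysis gave 72.0, 64.2, 61.9 and 104 CPM, its lowest value touching the highest control, and cisplatin gave 99.6, 105, 105 and 116 CPM. It was the one gene of the 10 whose cisplatin and rhabdomyolysis libraries overlapped, through rhabdomyolysis mouse 4. The mean was 75.6 ± 19.5 CPM in rhabdomyolysis (SD, n = 4), 1.47 times its controls (log2 change 0.54, adjusted p = 0.00161 in limma). In cisplatin it was 106.6 ± 7.11 CPM, 2.08 times the same controls (1.06, SE 0.15, adjusted p = 8.53e-07). In IRI the change was -0.01 (95% interval -0.31 to 0.29, adjusted p = 0.955). Cisplatin exceeded rhabdomyolysis by 0.52 (adjusted p = 0.00477), a call lost with DESeq2 (0.38, adjusted p = 0.0507). The rhabdomyolysis effect exceeded the IRI effect by 0.54 (adjusted p = 0.0319). That call was lost without any one of controls 3, 4, 5 and 7, IRI 2 or 4, or rhabdomyolysis 4, with differences of 0.38 to 0.52 and adjusted p of 0.0558 to 0.0763.

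Zfp365 encodes a zinc finger protein linked to genome stability. Like Psrc1 it was close to undetected in controls, at 0 to 0.431 CPM or 0 to 3 reads. IRI gave 0.656, 2.13, 0.574 and 0.686 CPM (5 to 16 reads), and rhabdomyolysis 3.78, 0.985, 2.76 and 2.38 CPM (10 to 40 reads). Cisplatin gave 40.5, 40.7, 42.7 and 44.9 CPM (347 to 464 reads), with no overlap with any other library. Pooled over mice, 32 reads in IRI against 6 in its controls gave a ratio per effective library size of 4.79, with an exact 95% counting interval of 1.97 to 14.0. The ratio was 13.5 in rhabdomyolysis (100 against 5 reads, 5.59 to 42.5) and 229 in cisplatin (1596 against 5 reads, 97.7 to 705). These intervals, here and for Psrc1, cover counting error only. Reads were pooled over mice, so the spread between mice is left out, and reads were not tagged by molecule. The log2 changes were 0.69 in IRI (adjusted p = 0.0109 in limma), 1.51 in rhabdomyolysis (adjusted p = 2.90e-06) and 5.21 in cisplatin (SE 0.23). Zfp365, too, passed the filter on low values only through cisplatin, and its cisplatin values are a description. The IRI call was lost without mouse 2 (0.45, adjusted p = 0.0663) and, with all mice kept, under quantile normalization (0.45, adjusted p = 0.0792). Cisplatin exceeded the IRI effect by 4.52 and rhabdomyolysis by 3.70. Rhabdomyolysis exceeded the IRI effect by 0.82 (adjusted p = 0.0427), and this call was lost under 17 of 31 alternatives, where adjusted p ran up to 0.299.

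**Figure D2:**
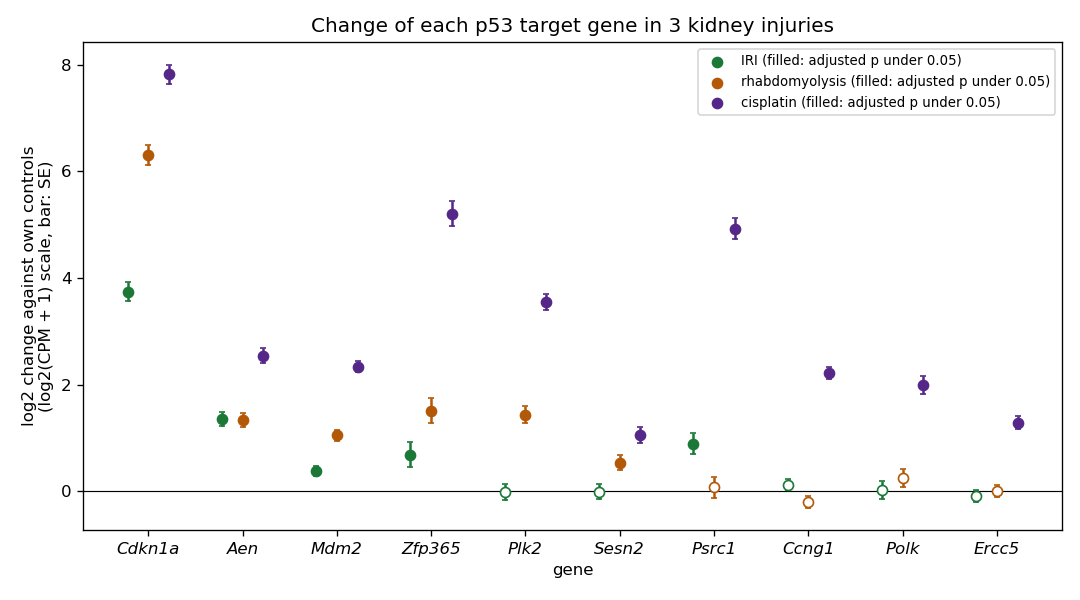
Change of each gene against its own 4 controls in limma, as a log2 value with its SE, for IRI, rhabdomyolysis and cisplatin; filled points have an adjusted p under 0.05. All 10 cisplatin points are filled (47.8% of all genes tested rose) and run from 1.06 for Sesn2 to 7.82 for Cdkn1a. Of the others, 5 IRI points (40.6%) and 6 rhabdomyolysis points (48.8%) are filled.

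The differences between injuries set the 10 genes apart from one another. All 10 were called higher in cisplatin than in rhabdomyolysis, against 32.7% of the genes tested, and all 10 had a larger effect in cisplatin than in IRI, against 16.8%. Both held together for 7.86% of genes tested. Nothing is read from these counts, or the medians and overlaps below, because 5 of the 10 genes were tested only through their cisplatin values. The 10 genes' median difference was 1.63 against rhabdomyolysis and 2.04 against IRI on the log2 scale, beside 0.09 and 0.05 over all genes. Psrc1 and Zfp365 had the largest differences from rhabdomyolysis, and Zfp365, Cdkn1a and Psrc1 from IRI. Sesn2 had the smallest of both. Cdkn1a stood out by its uneven pair of differences, 1.51 from rhabdomyolysis and 4.08 from IRI (adjusted p = 1.10e-10). Plk2 had the next most uneven pair, 2.11 from rhabdomyolysis and 3.56 from IRI (adjusted p = 8.83e-11). For 9 of the 10 genes (all but Sesn2) the 4 cisplatin libraries lay above every rhabdomyolysis library, as they did for 29% of genes tested, and above all other 16 libraries, as for 5.99%.

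**Figure D3:**
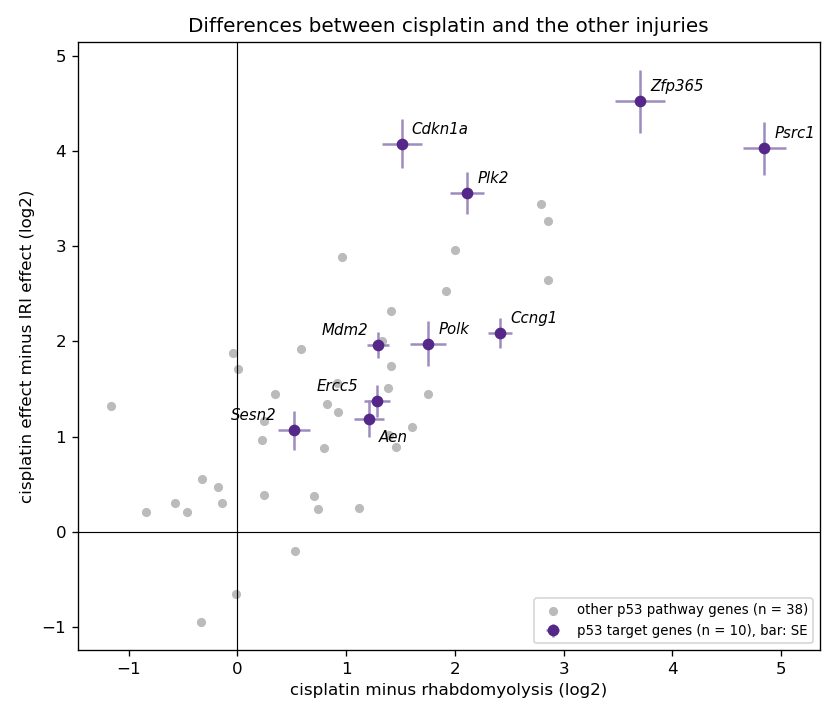
Each gene's difference between cisplatin and rhabdomyolysis (horizontal axis, log2) and between the cisplatin and IRI effects (vertical axis, log2), with SE bars for the 10 genes in purple and 38 other p53 pathway genes in grey. All 10 lie above 0 on both axes, with Psrc1 and Zfp365 farthest from the origin and Sesn2 nearest.

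Between rhabdomyolysis and IRI, both taken at 24 h, the effects of 5 genes were larger in rhabdomyolysis (Cdkn1a, Plk2, Mdm2, Sesn2 and Zfp365), against 23.4% of genes tested. That of Psrc1 was smaller, against 28.6%. The calls of Sesn2, Zfp365 and Psrc1 were lost under some alternatives. With each library left out in turn, 3 to 5 genes kept a larger effect in rhabdomyolysis. The differences for Aen, Polk, Ercc5 and Ccng1 did not pass the threshold, and that of Ccng1 was -0.33 (adjusted p = 0.0878 in limma). The 2 sets of controls gave no call for any of the 10 genes when compared with each other. Over all genes tested limma and edgeR also gave 0 calls, and DESeq2 gave 2. At an unadjusted p under 0.05 there were 454 genes in limma, 433 in edgeR with the deposited scaling, 468 in edgeR with TMM and 412 in DESeq2, and 2 of the 10 (Sesn2 and Mdm2) in limma.

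No library was the highest or the lowest of its group for all 10 genes. Cisplatin mouse 1 was the lowest of its group for 8 of the 10 genes and the highest for none. Rhabdomyolysis mouse 4 was the highest of its group for 6, among them Cdkn1a, Plk2, Mdm2 and Sesn2, while for Psrc1 and Polk it was the lowest.

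p53 itself and other genes of its pathway were read from a list of 65 written from general knowledge, of which 39 were in the table and 38 passed the filter on low values. In cisplatin 33 of the 38 were called higher and 5 lower, where 47.8% and 44% of all genes tested were. In rhabdomyolysis 29 were higher and 5 lower (48.8% and 46.5% of all genes), and in IRI 27 and 5 (40.6% and 40.1%). Of the 38, 4 (Fas, Perp, Rps27l and Trp53i11) could enter the table through cisplatin only. A 1.5-fold change in cisplatin, in either direction, was thus fixed for them by the selection. Nothing is read from the cisplatin counts, the cisplatin median or the counts of cisplatin differences below. The medians of the 38 on the log2 scale were 2.24, 1.30 and 0.82, beside 0.30, 0.31 and 0.08 over all genes. Against rhabdomyolysis, 24 were higher in cisplatin and 4 lower, where 32.7% and 21.4% of all genes tested were. Against the IRI effect 25 were higher and 2 lower, where 16.8% and 13.5% of all genes were. The 5 that fell in each injury were the same: Bid, Xpc, Sesn1, Fdxr and Aldh4a1. Bid promotes death at the mitochondrion and Xpc detects lesions for excision repair, and the other three act in metabolism.

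Trp53, the gene for p53, rose in each injury, with 28.4 ± 4.21 CPM in controls (SD, n = 8) and 56.5 ± 7.88, 60.6 ± 13.9 and 71.1 ± 9.08 CPM in IRI, rhabdomyolysis and cisplatin (n = 4 each). Its log2 changes were 0.94, 1.08 and 1.33 (adjusted p from 8.1e-08 to 1.4e-05 in limma). For the p53 messenger neither cisplatin difference passed the threshold, at 0.24 from rhabdomyolysis and 0.38 from the IRI effect (adjusted p = 0.19 for both). Chek1, a checkpoint kinase upstream of p53, had its largest change in IRI, at 1.62, against 1.00 in rhabdomyolysis and 0.66 in cisplatin. Its effects in rhabdomyolysis and IRI were not told apart (difference -0.62, adjusted p = 0.12 in limma). The Chek1 effect in cisplatin was below that in IRI (difference -0.95, adjusted p = 0.032). Of the other regulators fixed for naming, Mdm4, Ppm1d, Atm, Atr and Chek2 were not analysed here.

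Of 12 death genes tested, 11 were called higher in cisplatin, 9 in rhabdomyolysis and 9 in IRI, where 47.8%, 48.8% and 40.6% of all genes tested were. Higher in cisplatin than in rhabdomyolysis were 11, where 32.7% of all genes were. The 12 include Fas and Perp, which are in the table through cisplatin only. Phlda3, an inhibitor of the survival kinase Akt, averaged 4.40 CPM in controls, 15 in IRI, 18.9 in rhabdomyolysis and 143 in cisplatin. Eda2r, a receptor of the tumour necrosis factor receptor family, averaged 0.591, 7.45, 13.6 and 100.1 CPM. Trp53inp1, a cofactor of p53 in stress, averaged 44.0, 50.6, 82.3 and 301 CPM, and its log2 change in IRI, 0.23, was not called (adjusted p = 0.26). Fas, a death receptor, rose in cisplatin alone, from 7.88 ± 1.64 to 27.0 ± 1.05 CPM (log2 change 1.54). Like Ccng1, Polk and Ercc5 it could enter the table through cisplatin only, so this rise is a description. Bid fell in every injury, by 1.03 in cisplatin.

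Of the 8 arrest genes tested, all 8 rose in cisplatin (47.8% of all genes tested) and in rhabdomyolysis (48.8%) and 6 rose in IRI (40.6%). Against rhabdomyolysis, 4 were higher in cisplatin and 2 lower (Gadd45a and Plk3), where 32.7% and 21.4% of all genes were. Gadd45a averaged 148 CPM in rhabdomyolysis and 82.1 CPM in cisplatin (difference -0.84, adjusted p = 6.4e-06 in limma). Btg2, an antiproliferative factor, averaged 13.7 CPM in controls and 47.9, 97.8 and 391 CPM in IRI, rhabdomyolysis and cisplatin. Gtse1, a microtubule-associated regulator of p53, averaged 0.866 CPM in controls and 3.87, 4.42 and 38.3 CPM. It was low outside cisplatin. Unlike Psrc1 it was called higher in rhabdomyolysis (log2 change 1.38, adjusted p = 2.3e-06 in limma) as well as in IRI (1.59, adjusted p = 7.6e-07). Phlda3, Eda2r, Gtse1, Btg2, Trp53inp1 and Fas are named because they led the list when it was ranked by the smaller of the 2 cisplatin differences, which ran from 1.45 for Fas to 2.85 for Phlda3. Of 6 metabolic genes 3 were called higher and 3 lower in each injury, near the shares over all genes tested.

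**Figure D4:**
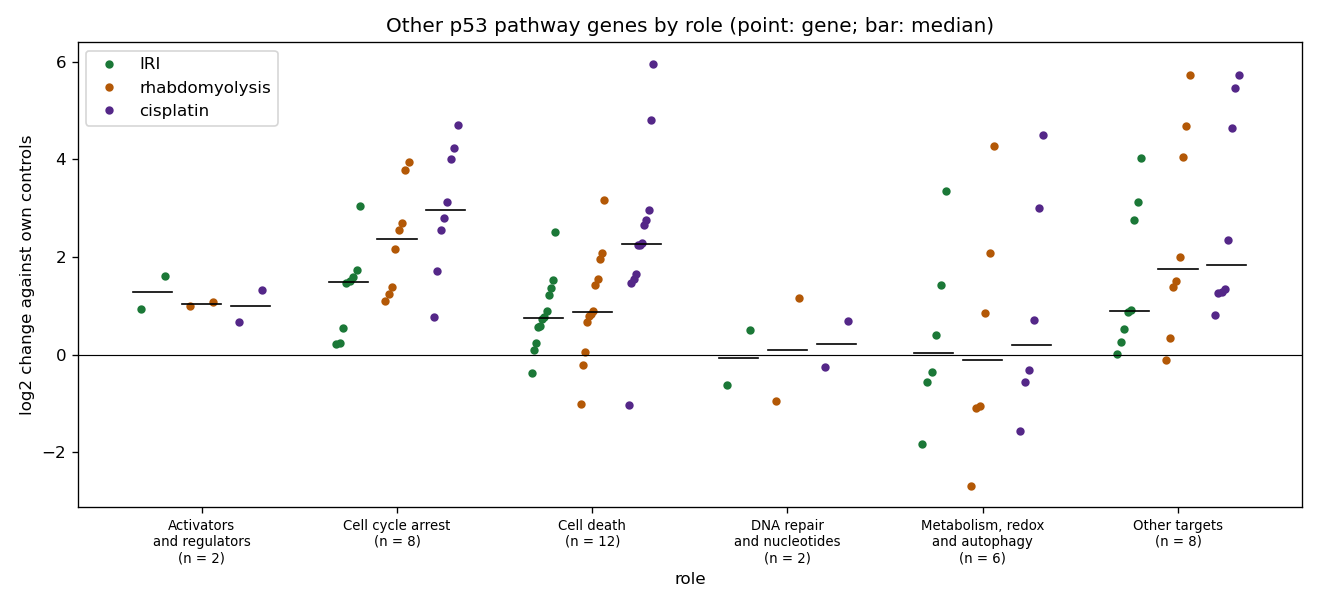
Log2 change against own controls of 38 other p53 pathway genes, grouped by role, with 1 point per gene and injury and the median as a bar. Every role but activators and regulators has its highest median in cisplatin, at 2.96 for arrest, 2.26 for cell death and 0.19 for metabolic genes. The metabolic genes spread on both sides of 0 in every injury. The cell death genes and the other targets each include 2 genes that are in the table through cisplatin only.

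Relatives of the 10 genes moved in both directions. Of 23 listed relatives 10 were in the table and 9 were tested. Beside Sesn2, Sesn1 fell in each injury (log2 change -0.31 in cisplatin) and Sesn3 rose in each (0.47 in cisplatin). Beside Plk2, Plk3 was highest in rhabdomyolysis, at 127 ± 28.9 CPM against 55.5 ± 6.61 in cisplatin (SD, n = 4; difference -1.16, adjusted p = 0.0014 in limma). Plk4 averaged 4.30 CPM in controls, 8.42 in IRI, 9.44 in rhabdomyolysis and 6.36 in cisplatin. Beside Polk, the lesion-bypass polymerase Poli fell in each injury, by 0.65 in cisplatin. Beside Ercc5, the excision nuclease partner Ercc1 rose from 8.11 ± 1.53 CPM (n = 8) to 20.7, 32.9 and 82.1 CPM in IRI, rhabdomyolysis and cisplatin, while the damage sensors Xpa and Xpc fell in each injury. Isg20, a relative of Aen, rose in cisplatin by 1.92 and in IRI by 0.58, and in rhabdomyolysis its change was 0.43 (adjusted p = 0.053). Plk5 averaged under 1 CPM in every group and was not tested.

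A list of cell division genes was read beside Cdkn1a. Of 26 cyclin, CDK and proliferation genes 10 were in the table. In IRI 8 were called higher (40.6% of all genes tested), and in rhabdomyolysis 7 (48.8%) with 1 lower. In cisplatin 5 were called higher and none lower, a share of higher calls near the 47.8% of all genes. Cdk1, the mitotic kinase, averaged 1.58 CPM in controls and 4.46, 2.74 and 2.39 CPM in IRI, rhabdomyolysis and cisplatin. Its effect in cisplatin was below that in IRI (difference -0.90, adjusted p = 0.021 in limma). Cdk2 showed the same order, at 10.9, 21.5, 16.2 and 13.2 CPM (difference -0.54, adjusted p = 0.037). Ccne1 rose in each injury, by 1.29, 0.63 and 0.68, and Pcna by 0.49, 1.16 and 0.70. Top2a passed in IRI (0.90, adjusted p = 0.0024) and not in cisplatin (0.46, adjusted p = 0.083). The cisplatin and IRI effects on Top2a were not told apart (difference -0.44, adjusted p = 0.36 in limma).

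For 9 of the 10 genes the nearest others are given, by the root mean square distance of the log2 changes over the 12 injured libraries. Cdkn1a had no close neighbour, the nearest being Fosl1 at 1.198 log2 units and Sprr1a at 1.30. Plk2 lay nearest to Gadd45b (0.538) and Slc4a11 (0.580), Zfp365 to Fam212b (0.630) and Phlda3 (0.694), and Psrc1 to Gc (0.505) and Cpt1c (0.568). The genes with smaller changes had closer neighbours. Ccng1 lay nearest to Zfp385a (0.269) and Pqlc3 (0.285), Polk to Nipal4 (0.237) and Serpina3g (0.248), and Ercc5 to Ikbke (0.197) and Eif4ebp3 (0.243). Aen lay nearest to Fat1 (0.215) and Smim3 (0.245), and Mdm2 to Tnfaip3 (0.219) and Lxn (0.247).

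The libraries held 3.48 to 5.40 M (mega) reads in the table. These reads were 55.3 to 70.6% of the effective library size in controls and 42.1 to 48.3% in injured kidneys, and the part of this shift in the changes was not tested. Marker lists of kidney and immune cells differed between the groups. Summed over all 8 of 8 proximal tubule markers, controls had 27250 to 50530 CPM, IRI 9419 to 15210, rhabdomyolysis 8427 to 9912 and cisplatin 5351 to 8918. Kap made up most of that sum (26420 CPM on average in controls, 6669 in rhabdomyolysis and 4065 in cisplatin). Marker by marker, 5 of the 8 (Lrp2, Cubn, Slc22a6, Slc27a2 and Aqp1) were called higher in cisplatin than in rhabdomyolysis and 3 lower. The median log2 change of the 8 was -1.40 for IRI, -2.61 for rhabdomyolysis and -1.86 for cisplatin. For macrophages and monocytes 4 of 6 markers were in the table, and their sum was 52.1 to 74.4 CPM in controls, 41.2 to 46.3 in IRI, 56.7 to 112.7 in rhabdomyolysis and 130.0 to 157.9 in cisplatin, above all other libraries. Within that list Cd68 rose to 90.7 CPM in cisplatin from 3.71 in controls, while Csf1r, which marks the lineage, fell from 51.7 to 29.6 CPM. The sum of 4 of 5 neutrophil markers was 2.39 to 4.94 CPM in controls, 12.5 to 26.8 in IRI, 24.7 to 44.5 in rhabdomyolysis and 18.7 to 34.5 in cisplatin. For 4 of 5 thick ascending limb and distal tubule markers the sum was 1380 to 2419 CPM in controls, 442 to 664 in IRI, 548 to 726 in rhabdomyolysis and 392 to 418 in cisplatin. Among these, Slc12a3 was lower in cisplatin than in rhabdomyolysis (log2 difference -2.03). Slc12a1 (1.25) and Pvalb (0.60) were higher, and Kcnj1 was not called (-0.18). Endothelial markers (3 of 5) summed to 81.1 to 197 CPM in controls, 170.3 to 206 in IRI, 362 to 452 in rhabdomyolysis and 223 to 309 in cisplatin. Fibroblast and pericyte markers (3 of 4) summed to 38.2 to 99.96, 224 to 329, 213 to 751 and 127 to 425 CPM in the same order of groups. The sum of 4 of 6 collecting duct markers was 384 to 604, 227 to 250.3, 130.4 to 221 and 198 to 263 CPM, and the podocyte marker Podxl (1 of 4) had 121 to 293, 276 to 361, 454 to 676 and 282 to 375 CPM. The part of these shifts in the changes of the 10 genes was not tested.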

How the data were processed

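Expression was measured by sequencing polyadenylated RNA of kidney cortex from 20 mice. Per the submitters' processing notes, reads were handled with FastQC, Bowtie2 2.1.0, RSEM 1.2.15 and edgeR on GRCm38 (mm10), with roles and settings not given in the sources used here. The authors deposited 1 table of normalized values in CPM for 6025 selected genes. Within each library the CPM values were whole multiples of 1 step (tolerance 0.01), which gave whole reads per gene and effective library sizes of 6.07 to 10.6 M (mega) reads. In cisplatin library 2 the step, 0.1009 CPM, is near 0.1, and 0.63% of its values are multiples of 0.1.

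The 10 genes were named by symbol, and they and all gene lists were chosen with earlier results of these data known. From the lists the text names the relatives in the table, fixed cell cycle genes, the 6 other p53 genes with the largest smaller cisplatin difference, the upstream regulators and the 2 nearest genes by distance. The nearest genes of Sesn2 are not reported here. Tests used limma 3.58.1 (R 4.3.3) on log2(CPM + 1), with a mean-variance trend, 1 model with 5 cells (controls 1 to 4, controls 5 to 8 and each injury), a minimum mean of 1 CPM per gene and Benjamini-Hochberg adjustment. All 10 genes passed that filter, Psrc1 and Zfp365 through their cisplatin values. No replicate pair agreed within counting noise. The alternatives were other pseudocounts, filters and scalings, edgeR 4.0.16 and DESeq2 1.42.0 on recovered reads, other control sets, each library left out and a replicate block. The fits were checked on simulated data. Promoters are RefSeq's, gene models GENCODE M21.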

Additional observations from a re-analysis of the deposited data

Results flagged for a closer look

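Of 40 groups of libraries examined (10 genes in 4 groups), 3 had 1 library far from the others, where chance flags about 1 group in 20. Plk2 in control 4 was 16.1 CPM (112 reads), and its gap to the next control took 0.571 of the range of the 8 controls. Mdm2 in rhabdomyolysis 4 was 131 CPM, with a gap of 0.899 of the range of its group. Zfp365 in IRI 2 was 2.13 CPM (16 reads), with a gap of 0.928, and the call of Zfp365 in IRI was lost without it. Mdm2 kept its call in rhabdomyolysis without library 4. Of the comparisons of an injury with controls, control 4 enters only that of IRI, in which Plk2 was not called with or without it.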

How the results depend on the processing

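Over 60 pairs of gene and comparison and 32 alternatives, 1842 of 1880 values stayed on their side of the threshold, 31 lost a call and 6 gained one. A further value, Ccng1 in rhabdomyolysis, changed sign and gained a call with quantile normalization (0.41). Values near 0 with no call, such as Plk2, Polk, Sesn2 and Ercc5 in IRI, also crossed 0 under some alternatives. With 75th percentile scaling 1 gene (Ercc5) rose in cisplatin alone and 2 (Ccng1 and Psrc1) in cisplatin and IRI but not rhabdomyolysis. Against all 8 controls, 1441 genes in all were called higher and 1195 lower in cisplatin effect than in IRI effect, where the reported fit gave 953 and 763. Leaving out each library in turn, 3 to 5 of the 10 genes kept a larger effect in rhabdomyolysis than in IRI, 3 without control 4, control 5, rhabdomyolysis 4 or IRI 4. The cause of these shifts was not tested. The median of all genes in rhabdomyolysis, 0.31 as reported, was 0.14 with quantile normalization and 0.44 with 75th percentile scaling, and in edgeR 0.47 with the deposited scaling and 0.61 with TMM. Zfp365 lost its call in IRI with quantile normalization. A replicate block left 5 of the 10 genes called in IRI and 10 in cisplatin against rhabdomyolysis; equal numbers did not pair the libraries (correlations of -0.11 to 0.18 and -0.21 to 0.32), and controls 5 to 8 share no number with the mice they were compared with. Psrc1 and Zfp365, with 0 to 6 and 0 to 3 reads per control library, are the genes that depth limits.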
